A study of Homo sapiens with 12 samples.

Results

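The CEBPA and CEBPG locus was examined as the 300 kb of chromosome 19 (hg38) that hold both genes and the known downstream enhancers of CEBPA, and all accessible regions in it were kept, which were 74 of the 355515 regions found over the genome. A region is a stretch covered by overlapping ATAC-seq peaks of any of 6 peak lists (at least 1 bp shared), and it is called here by the distance of its strongest summit from the CEBPA start, in kb downstream (along CEBPA, which lies on the minus strand) or upstream (towards CEBPG, on the plus strand). ATAC-seq uses the transposase Tn5 to cut open chromatin, so that sequenced tags pile up where DNA is accessible. The cells were KO52 (KO-52), an acute myeloid leukemia line with biallelic CEBPA mutations, transduced with an empty vector (EV), with p42 or with p30, and each line was kept in DMSO or given tunicamycin (Tm) at 2 µg/mL for 8 h, a drug that blocks N-glycosylation and causes endoplasmic reticulum stress. Each of the 6 conditions had 2 replicates of 50000 nuclei, 12 libraries in all, but the lists were called on pooled replicates, so every value below is 1 value per condition without a replicate spread, and no test between conditions was possible.

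What the lines share limits them as a model: all carried the endogenous CEBPA mutations, and per the methods the isoforms were given as fusions to ERT2 that enter the nucleus with 4-hydroxytamoxifen, which the empty vector controls received too. The labelled myeloid identity was checked on promoter peaks. Among 7 blood and myeloid markers, 4 had a peak over the start in every list (SPI1, CD33, CSF3R and CEBPE) and 3 had none (PTPRC, MPO and CSF1R), while among 5 markers of other cell types 1 had a peak in every list (CD3E) and 4 had none (GATA1, EPCAM, ALB and COL1A1). The start was the outermost annotated one of each gene, so a peak at another start of the gene was not counted. The lists held 187704 to 254239 peaks at an estimated depth of 22250000 (EV, DMSO) to 29980000 tags (p42, DMSO), and the lowest −log10 q was 1.3 in each.

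CEBPA encodes C/EBPα, a basic leucine zipper factor that commits blood progenitors to granulocytes and monocytes. Its full-length form is p42, and p30 is a shorter form, made from an internal start codon, that lacks the amino-terminal transactivation domain. CEBPG encodes C/EBPγ, a small family member that pairs with other C/EBP proteins and with ATF4 on composite elements and is known for its part in the amino acid and stress response. CEBPA is transcribed from a single exon and is driven in myeloid progenitors by an enhancer about 42 kb downstream of its start, bound by hematopoietic factors such as RUNX1.

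The sequences of the elements that the results turn on are given from hg38, on the forward strand except for the CEBPA promoter, which is given on the minus strand so that it reads towards the gene. Capitals mark exact matches to 9 motifs on either strand (C/EBP TTGNNCAA, C/EBP:AP-1 TGTTGCAA, C/EBP:ATF TGATGCAA, AP-1 TGANTCA, CRE TGACGTCA, RUNX TGTGGT, PU.1 GAGGAAGT, ETS GGAAGT, whose letters lie inside those of PU.1, and for the GATA factors AGATAA). The enhancer region, chr19:33260550-33261471, had its summit at one of 2 places, so both are shown, each with 100 bases on either side. The 2 EV lists had the first place and the other 4 lists the second.
Enhancer, first summit, chr19:33260661-33260861: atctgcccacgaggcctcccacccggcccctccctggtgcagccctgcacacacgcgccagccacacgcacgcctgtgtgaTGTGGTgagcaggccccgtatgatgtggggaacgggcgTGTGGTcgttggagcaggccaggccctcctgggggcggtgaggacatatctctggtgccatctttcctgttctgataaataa
Enhancer, second summit, chr19:33260961-33261161: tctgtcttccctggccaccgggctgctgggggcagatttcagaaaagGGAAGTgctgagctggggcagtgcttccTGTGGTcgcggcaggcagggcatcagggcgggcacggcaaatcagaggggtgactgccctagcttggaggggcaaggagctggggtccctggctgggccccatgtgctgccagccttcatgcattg
The first holds 2 RUNX matches and the second 1 RUNX and 1 ETS match. Both promoters are rich in G and C. The 250 bases before the CEBPA start, which hold its summit, were taken from RefSeq (GRCh38.p14) and are 81.2% G or C.
CEBPA promoter, chr19:33302535-33302784, minus strand: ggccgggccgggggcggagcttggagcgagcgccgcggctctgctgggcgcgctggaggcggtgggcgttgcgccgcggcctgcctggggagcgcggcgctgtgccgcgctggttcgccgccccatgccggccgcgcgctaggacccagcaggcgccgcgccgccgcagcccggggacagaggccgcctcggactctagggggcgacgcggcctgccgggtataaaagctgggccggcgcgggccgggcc
None of the 9 motifs matched there. CEBPG has several annotated starts under the same region, with a RefSeq start at chr19:33373709 among them. Shown here are the outermost start and another 428 bp further on, called the second start. This second start lies behind a C/EBP:ATF match, the element type that C/EBPγ and ATF4 are known to share.
CEBPG before the first exon, chr19:33373485-33373684: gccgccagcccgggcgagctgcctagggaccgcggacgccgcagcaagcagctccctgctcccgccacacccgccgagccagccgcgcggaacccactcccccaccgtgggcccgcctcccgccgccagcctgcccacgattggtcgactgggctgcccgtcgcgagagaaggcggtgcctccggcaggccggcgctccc
CEBPG before the second start, chr19:33373913-33374112: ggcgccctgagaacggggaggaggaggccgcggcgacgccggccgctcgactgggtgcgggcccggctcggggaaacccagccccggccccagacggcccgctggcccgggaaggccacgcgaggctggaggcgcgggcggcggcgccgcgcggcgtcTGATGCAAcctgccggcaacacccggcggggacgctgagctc
That match lies at chr19:33374071-33374078, and 0.776% of 34796 RefSeq promoters hold one in the 250 bases before the start. Further downstream of CEBPA, 3 intergenic regions are shown because their tags differed between p42 and the other cells. The region 28.4 kb downstream was chosen after its values were seen.
Region 35.3 kb downstream, chr19:33267168-33267368: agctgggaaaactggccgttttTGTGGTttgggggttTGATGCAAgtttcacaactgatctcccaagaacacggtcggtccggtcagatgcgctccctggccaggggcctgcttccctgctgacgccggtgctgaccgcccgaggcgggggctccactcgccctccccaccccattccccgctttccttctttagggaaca
Region 28.4 kb downstream, chr19:33274073-33274273: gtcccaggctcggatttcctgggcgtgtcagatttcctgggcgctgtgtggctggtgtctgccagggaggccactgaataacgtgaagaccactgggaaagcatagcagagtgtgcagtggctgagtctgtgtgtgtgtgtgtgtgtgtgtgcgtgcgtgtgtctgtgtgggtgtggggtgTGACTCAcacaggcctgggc
Region 15.4 kb downstream, chr19:33287033-33287233: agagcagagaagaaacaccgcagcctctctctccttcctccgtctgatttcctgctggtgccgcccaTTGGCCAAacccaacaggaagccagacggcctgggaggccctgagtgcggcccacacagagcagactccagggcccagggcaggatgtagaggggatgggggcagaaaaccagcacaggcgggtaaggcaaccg
These hold a C/EBP:ATF and a RUNX match, an AP-1 match and a C/EBP match, respectively.

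The locus was crowded with accessible regions. Its 74 regions exceeded the number in 96.3% of 9689 tiles of 300 kb over the genome, where the median was 35, and its 38 regions with a peak in all 6 lists exceeded 99.2% of tiles, where the median was 10. Thus 38 of 74 regions were present in every list against 32.2% of all regions, and 15 of 74 were in 1 list only against 34.3% of all. A list held 49 to 57 regions of the locus, with a median width of 193 to 254 bp, against 134 to 153 bp over all peaks. Of the 74 regions, 28 lay over 60 kb downstream of CEBPA (in and around WDR88, LRP3 and SLC7A10), 16 lay between 5 and 60 kb downstream, where no coding gene is annotated, and 17 lay over 5 kb past the CEBPG start, at CEBPG and PEPD, which encodes a dipeptidase. Within 5 kb of the CEBPA start there were 5 regions, within 5 kb of the CEBPG start 2, and in the remaining stretch between both genes 6.

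**Figure D1:**
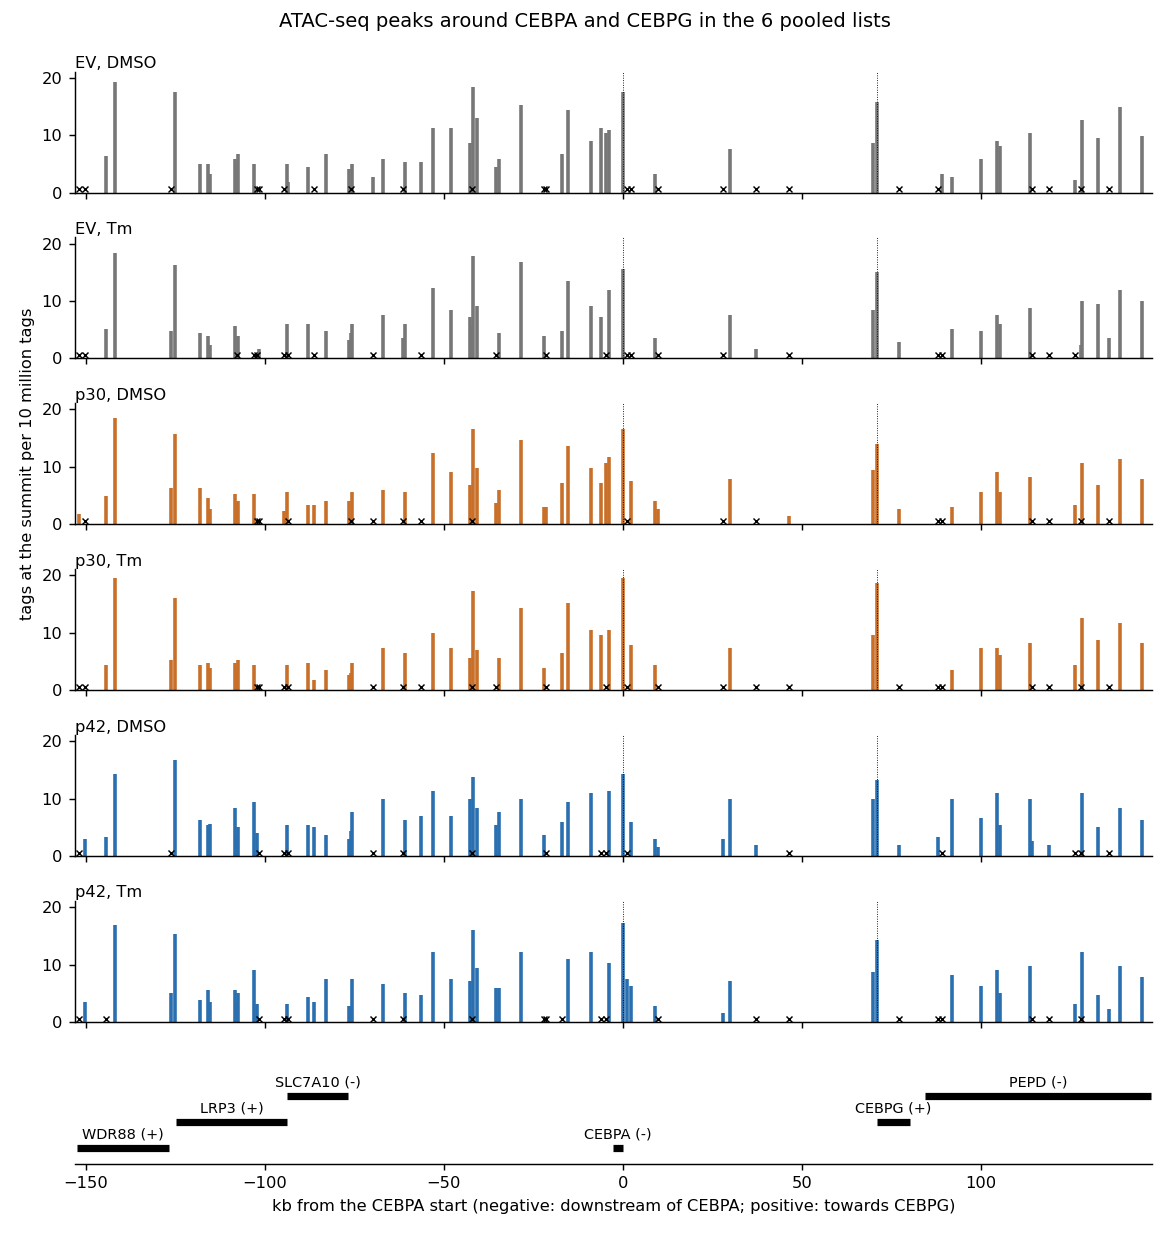
Peaks of the 6 lists along the locus. The horizontal axis is the distance from the CEBPA start in kb (negative downstream) and the vertical axis the tags at the summit per 10M (10000000) tags of the list; a cross marks a region with no peak in that list, dotted lines the CEBPA and CEBPG starts, and black bars the coding genes. Tall bars stand in all 6 lists at the enhancer, at both starts and in the WDR88 intron 141.8 kb downstream.

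Summit height was compared as tags at the summit per 10000000 tags of the list (10M), and rank as the percentile of a peak by −log10 q within its own list. The enhancer had 18.4 tags per 10M in EV DMSO and 17.9 in EV Tm, 16.6 and 17.3 in p30 DMSO and Tm, and 13.7 and 16.1 in p42 DMSO and Tm. Its percentile was 87.7 and 92 in EV, 89.7 and 89.1 in p30, and 87.4 and 91.5 in p42 (DMSO and Tm). The enhancer was therefore among the stronger peaks of every list, and the 95% Poisson intervals of its 6 summits, of 40 to 45 tags each, overlapped, from 9.81 to 18.5 for the lowest (p42 DMSO) to 13.2 to 25 for the highest (EV DMSO). From p30 to p42 cells in DMSO its percentile differed by -2.37 points, where 90% of 9054 regions of like rank (within 2 points) differed by -10.3 to 14.1.

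At the CEBPA promoter, chr19:33302212-33303239, the summit stood 101 to 126 bp before the start in every list, and it reached 39 to 45 tags. Per 10M these were 17.5 and 15.5 in EV, 16.6 and 19.5 in p30, and 14.3 and 17.3 in p42 (DMSO and Tm), with overlapping intervals. The percentile was 74.6 and 75.6, 78.1 and 85.4, and 76.9 and 83.3 in the same order. In 4 lists (EV Tm, p30 Tm and both of p42) a second peak of 127 to 196 bp lay 595 to 649 bp before the start, within the divergent transcript CEBPA-DT, while in EV DMSO and p30 DMSO 1 peak of 1015 and 960 bp covered both places. The p42-minus-p30 difference in DMSO was -1.26 points (like regions: -15 to 22.2).

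The CEBPG promoter, chr19:33373330-33374338, ranked above the CEBPA promoter in each of the 6 lists, at percentiles of 90.8 and 88.8 in EV, 90.7 and 95.5 in p30, and 90.9 and 88.6 in p42. Its summit, 47 to 103 bp before the first start, had 15.7 and 15.1 tags per 10M in EV, 13.9 and 18.6 in p30, and 13.3 and 14.2 in p42, again with overlapping intervals. By summit height the order was the reverse, with CEBPA higher in each list (17.5 and 15.5, 16.6 and 19.5, 14.3 and 17.3 in the same order). The rank by −log10 q also depends on the depth around a peak, which is given below. At CEBPG the p30 Tm value was the highest of the 6, at 1.34 times the DMSO value, within the 0.862 to 1.39 of 90% of like regions, and p42 and p30 in DMSO differed by 0.155 points. At none of the 3 elements did the summit intervals of any 2 lists fail to overlap, which does not show that the summits were equal.

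The depth around a summit allowed a finer comparison. The local background that MACS2 assigns to a peak without a control equals the tags in the 10 kb around its summit, scaled to 1 fragment, and for 100% of the peaks above the genome average the background came out as a whole number of tags in 10 kb (within 0.1). These counts are larger than those at a summit and have narrower intervals. Around the CEBPA promoter, in a window that holds the whole gene, the 6 lists had 1132 and 1098 tags in EV, 1331 and 995 in p30, and 1413 and 1099 in p42 (DMSO and Tm). This was 11.6 to 13.7 times the genome average of 37 tags per 10M, and higher than at 98.5 to 99.6% of the 11648 to 11881 coding starts with a peak. By summit height CEBPA was higher than 56.5 to 78.5% of them, but by percentile higher than only 16.8 to 35.2%. The CEBPG promoter, at 4.68 to 5.92 times the average, was nearer the middle of the coding starts, above 60.3 to 76.9% of them, and by percentile above 38.6 to 70.9%. No peak of any list had its summit inside the CEBPA gene. The intervals of EV cells, which carry no CEBPA transgene, overlapped those of both other lines in that window in DMSO (480 to 539 per 10M in EV, 475 to 529 in p30 and 447 to 496 in p42) and in tunicamycin (412 to 464, 405 to 459 and 407 to 458).

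In the 10-kb windows, tags were fewer with tunicamycin around CEBPA and its enhancer in all 3 lines. Around CEBPG they were more in EV by more than counting error, and in p30 at its edge. Around the CEBPA promoter the tags per 10M were 509 in EV DMSO and 437 in EV Tm, 502 and 431 in p30, and 471 and 432 in p42. The ratio of tunicamycin to DMSO was 0.859 in EV (95% interval 0.79 to 0.934), 0.86 in p30 (0.791 to 0.934) and 0.917 in p42 (0.846 to 0.993), each below the range of 90% of regions of like tag density, which began at 0.876, 0.923 and 0.941. Thus the decrease exceeded counting error in each of the 3 lines.

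Around the enhancer the tags per 10M were 330 in EV DMSO and 277 in EV Tm, 292 and 264 in p30, and 255 and 230 in p42. The ratios were 0.839 (0.755 to 0.931), 0.904 (0.812 to 1.01) and 0.9 (0.807 to 1), each just below the range of like regions, which began at 0.871, 0.908 and 0.916. The enhancer was lower in all 3 lines, and of the 3 intervals that of EV lay below 1. Around CEBPG the tags were 182 and 219 in EV, 173 and 198 in p30, and 188 and 197 in p42, with ratios of 1.2 (1.06 to 1.37), 1.14 (1 to 1.3) and 1.05 (0.925 to 1.18). The EV ratio lay above the upper end of like regions, 1.12, and the other 2 lay within their ranges. In p42 the ratio was within counting error, and in p30 the interval began at 1. The summits did not follow the windows: at the summit, tunicamycin over DMSO was 0.885 in EV, 1.18 in p30 and 1.21 in p42 for CEBPA, 0.972, 1.05 and 1.18 for the enhancer, and 0.961, 1.34 and 1.06 for CEBPG, with overlapping intervals in each case.

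Setting CEBPG over CEBPA within a list needs no depth estimate. CEBPG had 0.358 times the tags of CEBPA in EV DMSO (0.319 to 0.401) and 0.502 times in EV Tm (0.452 to 0.556). In p30 the ratio was 0.346 (0.31 to 0.385) in DMSO and 0.459 (0.41 to 0.514) in tunicamycin, with 460 and 457 tags around CEBPG and 1331 and 995 around CEBPA, and in p42 it was 0.4 (0.362 to 0.441) and 0.456 (0.409 to 0.507). The intervals before and after tunicamycin did not overlap in EV and p30 and overlapped in p42. The enhancer over CEBPA, by contrast, gave 0.649 and 0.634 in EV, 0.583 and 0.613 in p30, and 0.541 and 0.531 in p42, so both moved alike with tunicamycin.

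**Figure D2:**
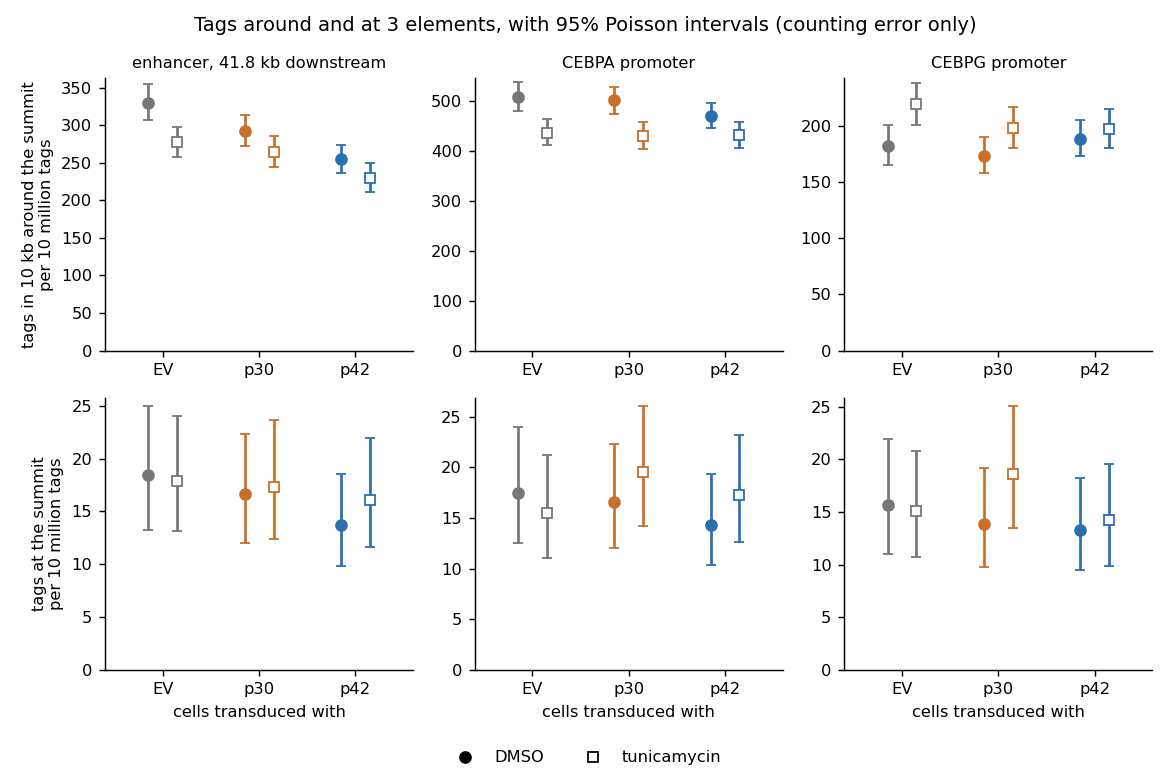
Tags per 10M in the 10 kb around the summit (upper row) and at the summit (lower row) for the enhancer, the CEBPA promoter and the CEBPG promoter. Points are the pooled lists of EV, p30 and p42 cells in DMSO (filled circles) or tunicamycin (open squares) and bars are 95% Poisson intervals, which cover counting error only; around CEBPA the values fell from 471 to 509 in DMSO to 431 to 437 in tunicamycin, and around CEBPG they went from 173 to 188 up to 197 to 219.

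The decrease was spread over the locus. With tunicamycin, the tags in 10 kb per 10M were lower at 36 of 39 regions of the locus in EV cells, against 61.1% of all regions of the genome, at 41 of 45 in p30 cells against 50.6%, and at 39 of 46 in p42 cells against 50.5%. Neighbouring regions share tags, so 15 regions with windows that do not overlap were also taken, and 14, 14 and 11 of them were lower in EV, p30 and p42. Of the 15, an interval below 1 was found at 4, 3 and 6, and an interval above 1 at 1, 1 and 0. The share of all regions with such intervals was not taken, so these counts give no comparison with the genome. The p30 interval counted as above 1 was that of CEBPG, whose lower end rounded to 1 (1 to 1.3). Scaled to the median of regions of like density, it held 1 (0.98 to 1.27). Summed over the 15, the ratio was 0.902 in EV (0.869 to 0.937), 0.909 in p30 (0.876 to 0.943) and 0.924 in p42 (0.891 to 0.958). In EV and in p30 cells the 1 window that was higher was that of CEBPG. Regions of chromosome 19 as a whole were lower too, at 76.1% (EV), 65.4% (p30) and 62.5% (p42) of regions, with median ratios of 0.937, 0.961 and 0.964. The median over the locus, 0.873, 0.884 and 0.855, was below them, and 4.09%, 4.28% and 0.391% of tiles of 300 kb with 20 or more regions had a lower one. Whether a property of chromosome 19 takes part in the decrease was not tested.

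**Figure D3:**
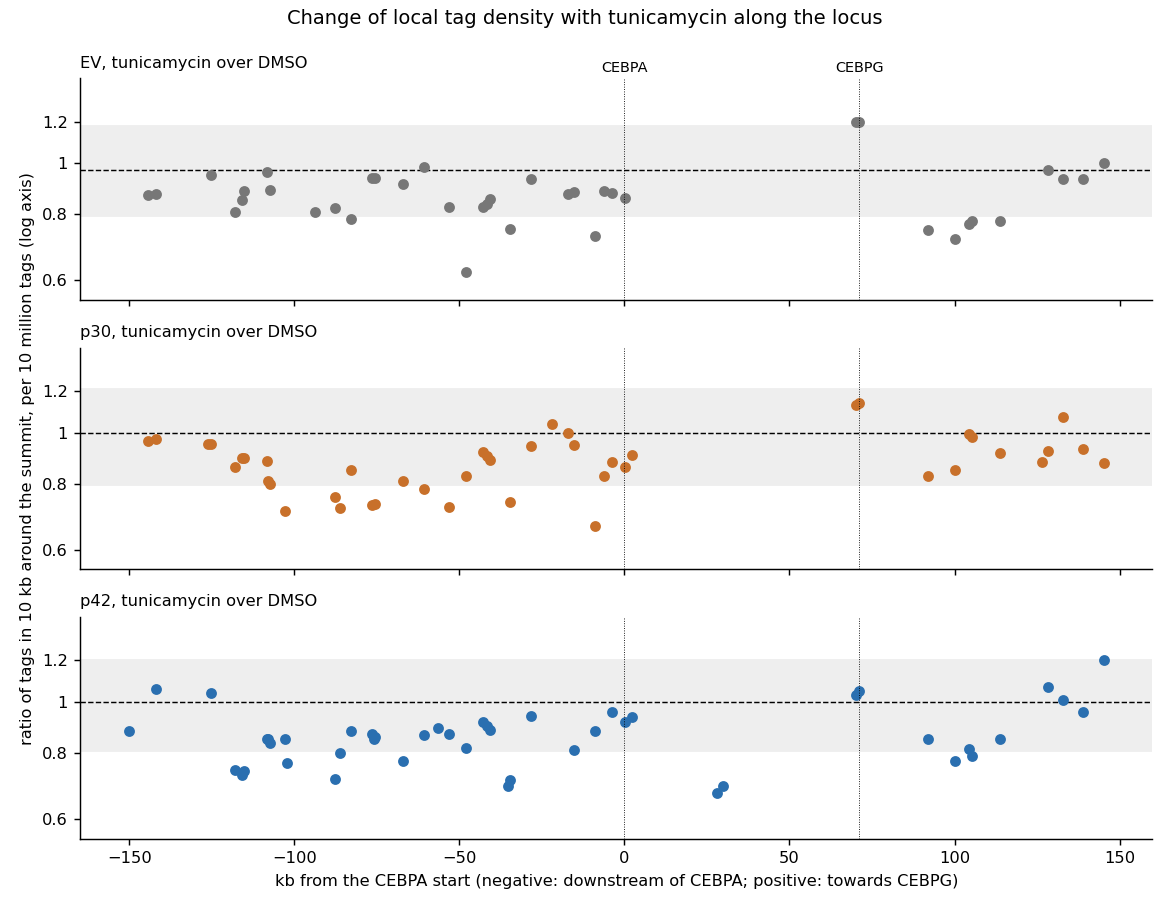
Ratio of tunicamycin to DMSO for the tags in the 10 kb around each summit, on a log axis, against the distance from the CEBPA start in kb, for EV, p30 and p42 cells. The dashed line is the median over all regions (0.97, 0.998 and 0.999) and the grey band holds 90% of them; negative distances are downstream, most points lie under the line, and the points at the CEBPG start lie above it.

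Between p42 and p30 cells several distal regions differed by more than counting error, and neither promoter did. Around the CEBPA promoter the p42 over p30 ratio was 0.939 in DMSO (0.871 to 1.01) and 1 in tunicamycin (0.919 to 1.09), and around CEBPG 1.09 (0.959 to 1.23) and 0.994 (0.874 to 1.13). In the intergenic stretch downstream of CEBPA the differences went both ways. Around the region 34.6 kb downstream, p42 had 173 tags per 10M (159 to 189) in DMSO and p30 had 141 (127 to 156). In tunicamycin these were 123 and 104, with overlapping intervals. The overlapping window 35.3 kb downstream (in DMSO) and that 53.1 kb downstream (in tunicamycin), given below, were also higher in p42. Of the 15 windows without shared tags, 3 in this stretch were lower in p42 in both treatments. The enhancer had ratios of 0.872 (0.788 to 0.965) in DMSO and 0.868 (0.774 to 0.974) in tunicamycin, the region 28.4 kb downstream 0.771 (0.684 to 0.868) and 0.77 (0.674 to 0.879), and the region 15.4 kb downstream 0.81 (0.697 to 0.942) and 0.694 (0.582 to 0.826). The DMSO and tunicamycin lists share no library, so the 2 ratios of a region come from different libraries. Both treatments used the same transduced lines, however, so the 2 ratios do not replicate a difference between isoforms. Each of the 3 was also lower in p42 than in EV cells, at 0.772, 0.792 and 0.817 in DMSO and 0.829, 0.798 and 0.75 in tunicamycin, with all intervals below 1. These comparisons share the p42 lists with those above. The enhancer was lower in p30 than in EV in DMSO as well, at 0.885 (0.799 to 0.981), just under the range of like regions, which began at 0.887, while in tunicamycin p30 over EV was 0.954 (0.855 to 1.07). The ranges of 90% of like regions for p42 over p30, 0.781 to 1.13, 0.763 to 1.16 and 0.728 to 1.25 in DMSO, contained all 3 DMSO ratios, and in tunicamycin the third lay under its range (0.728 to 1.28). The ratios of the region 28.4 kb downstream lay close to the lower ends of their ranges (0.763 in DMSO and 0.764 in tunicamycin). Scaled to the median of like regions, the enhancer ratios were 0.906 (0.818 to 1) and 0.899 (0.801 to 1.01), so that the enhancer no longer differed by more than counting error.

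Over the locus, p42 was lower than p30 in DMSO with an interval below 1 at 11 of 45 regions, against 15.9% of all regions, and higher with an interval above 1 at 11, against 10.6%. In tunicamycin these were 6 of 42 (13.5% of all) and 8 (9.19% of all). Over the 15 windows without shared tags the counts were 5 lower and 1 higher in DMSO and 4 lower and 2 higher in tunicamycin. On the same side of 1 in both treatments, which used the same lines, were 11 of 15 windows. The share of all regions on the same side was not taken. Without regard to the interval, p42 was lower than p30 at 21 of 45 (54.4% of all regions) and lower than EV at 20 of 43 (57.3%), and p30 was lower than EV at 26 of 45 (56.4%). Summed over the 15 windows, the ratio in DMSO was 0.947 (0.915 to 0.98) for p42 over p30, 0.922 (0.89 to 0.956) for p42 over EV and 0.974 (0.939 to 1.01) for p30 over EV. Over all regions of the locus, though, the median ratio in DMSO was 1.01 for p42 over p30 and 1.03 for p42 over EV. The lower sums thus describe the 15 windows kept and not the locus as a whole. Of the 15 windows, the 1 with an interval above 1 in both treatments lay in an intron of LRP3, 108.3 kb downstream. LRP3 encodes a member of the low density lipoprotein receptor family, and the ratios were 1.38 (1.17 to 1.63) and 1.33 (1.1 to 1.62). The region 53.1 kb downstream was higher with an interval above 1 in tunicamycin only (1.33, 1.13 to 1.57, against 1.11, 0.969 to 1.26 in DMSO), and the PEPD intron 138.9 kb upstream was lower in both (0.742 and 0.762).

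Presence of peaks changed little between the cells. In DMSO, 9 of 57 regions of p42 cells had no peak in p30 cells, against 36.1% of the p42 regions of the genome, and 8 of 56 regions of p30 cells had none in p42 cells, against 21%. With peaks of a −log10 q of at least 5 these counts were 9 and 3. Against EV, p42 cells had 13 of 57 regions without an EV peak (39.9% of all) and lacked 6 of 50 EV regions (17.4% of all), and p30 cells had 10 of 56 (26% of all) and lacked 4 of 50 (17.7% of all). In tunicamycin, 7 of 52 regions were in p42 and not p30 (30.8% of all) and 4 of 49 in p30 and not p42 (20.4% of all). All of these shares were below those of the genome. Of the DMSO regions, 9 of 57 in p42 (31.1% of all), 8 of 56 in p30 (27.2%) and 9 of 50 in EV (20%) had no tunicamycin peak, and of the tunicamycin regions 4 of 52 in p42 (16%), 1 of 49 in p30 (17.3%) and 10 of 51 in EV (22.5%) had no DMSO peak. Among regions in all 6 lists, the median summit was 7.35 to 8.54 tags per 10M in the locus and 6.34 to 7.19 over the genome, and the part of this in the low shares was not tested.

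By summit height, 6 of 48 shared regions were at least 1.5 times higher in p42 than in p30 in DMSO (9.97% of all regions) and 1 at least 1.5 times lower (12.6% of all), and in tunicamycin 5 of 45 were higher (9.22%) and 2 lower (11.9%). Against EV in DMSO, 5 of 44 were higher in p42 (5.77%) and 10 lower (18.8%). Regions found in both p42 lists and in no other were 3 of 74, against 4.58% of all regions, and 1 of 74 was in all EV and p30 lists and in neither of p42, against 0.802%.

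The 3 regions of both p42 lists were of low or middle rank, at chr19:33152264-33152649 in a WDR88 intron (percentiles 47.5 in DMSO and 49.5 in Tm), at chr19:33200291-33200388 in an LRP3 intron (38.1 and 12.9) and at chr19:33330565-33330698 between CEBPA and CEBPG (39.1 and 0.549). The WDR88 region holds a C/EBP match. The region absent from p42 lay 6.2 kb downstream of the CEBPA start, at chr19:33296300-33296497, with percentiles of 55.1 and 25.2 in EV and 16.4 and 51.7 in p30. Its summit had 11.2 and 7.16 tags per 10M in EV and 7.16 and 9.53 in p30, whereas in p42 a summit of 6.34 (DMSO) or 6.68 (Tm) would have been called, as judged from the background of the nearest peak. The lower of the called values were close to that limit, so a summit in p42 of nearly the same height could have been missed.

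Some regions had their peak at different ranks in the lists. They were chosen as those of largest p42-minus-p30 difference in DMSO or as absent from a list, so their DMSO values are a description. Over all 157320 regions shared by p42 and p30 in DMSO the difference had a median of 3.16 points and 90% of regions lay between -26 and 39.3. Close to the enhancer, at chr19:33259662-33259800 (42.8 kb downstream), the summit had 30 tags in p42 DMSO and 13 to 19 in the other 5 lists, and the percentile was 37.3 and 36.4 in EV, 29.3 and 4.86 in p30, and 74.1 and 47.6 in p42 (DMSO and Tm). Per 10M this was 10 (6.75 to 14.3) in p42 DMSO against 6.78 (4.02 to 10.7) in p30 DMSO, with overlapping intervals. An AP-1 match lies 58 bp from its summit, at chr19:33259804-33259810, which is just past the end of the region and outside its peaks. In an intron of PEPD, at chr19:33394426-33394902 (92.1 kb upstream), the summit had 30 and 21 tags in p42 (DMSO and Tm), 8 and 8 in p30, and 6 and 13 in EV. Per 10M this was 10 (6.75 to 14.3) in p42 and 3.02 (1.3 to 5.94) in p30 in DMSO, the values that chose the region, and 8.25 (5.11 to 12.6) and 3.47 (1.5 to 6.83) in tunicamycin, where the intervals overlapped. The 10 kb around it, which hold that summit, had 107 tags per 10M in p42 (95.3 to 119) and 70.9 in p30 (61.1 to 81.7) in DMSO. In tunicamycin they had 90.8 (79.5 to 103) and 58.5 (49.1 to 69.2), so these intervals were separate in both treatments. Both p42 percentiles, 87.8 and 77.5, were above the 3.53 to 62.8 of the other 4 lists, and an AP-1 and a RUNX match lie within 100 bp of the summit, as its sequence shows.
Region 92.1 kb upstream, chr19:33394489-33394689: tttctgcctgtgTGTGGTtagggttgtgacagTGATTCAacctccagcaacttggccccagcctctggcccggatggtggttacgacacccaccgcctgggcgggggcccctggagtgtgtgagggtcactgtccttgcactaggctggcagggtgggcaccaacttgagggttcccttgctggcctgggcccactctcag

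Another region with more summit tags in p42, at chr19:33199468-33200137 in an LRP3 intron (102.9 kb downstream), had 28 and 23 tags in p42, 14 and 10 in p30, 11 in EV DMSO and no peak in EV Tm. Per 10M, DMSO gave 9.34 (6.21 to 13.5) in p42, 5.28 (2.88 to 8.85) in p30 and 4.94 (2.47 to 8.85) in EV. Tunicamycin gave 9.04 (5.73 to 13.6) in p42 and 4.33 (2.08 to 7.97) in p30. The p42 intervals overlapped the others in both treatments. The region 35.3 kb downstream, chr19:33267080-33267317, had percentiles of 41.8 and 54.5 in p42, 12.4 in p30 DMSO and 14.9 in EV DMSO, and no peak in tunicamycin in either of the latter 2 lines. This region was chosen through its p42 Tm percentile and its absence from the EV Tm and p30 Tm lists. It is the 1 region of the locus with a C/EBP:ATF match within 100 bp of the summit, which 1.25% of all regions have. In DMSO its 10 kb held 178 tags per 10M in p42 (164 to 194), 142 in p30 (128 to 157) and 136 in EV (121 to 152), and in p42 with tunicamycin 123 (110 to 138). The rank of this region thus went up in p42 with tunicamycin while the tags around it went down. Its summit had 16 tags in p42 DMSO and 15 in p42 Tm, or 5.34 and 5.9 per 10M, with overlapping intervals. The −log10 q is set against the tags around a summit, so the change in rank is not independent of them.

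**Figure D4:**
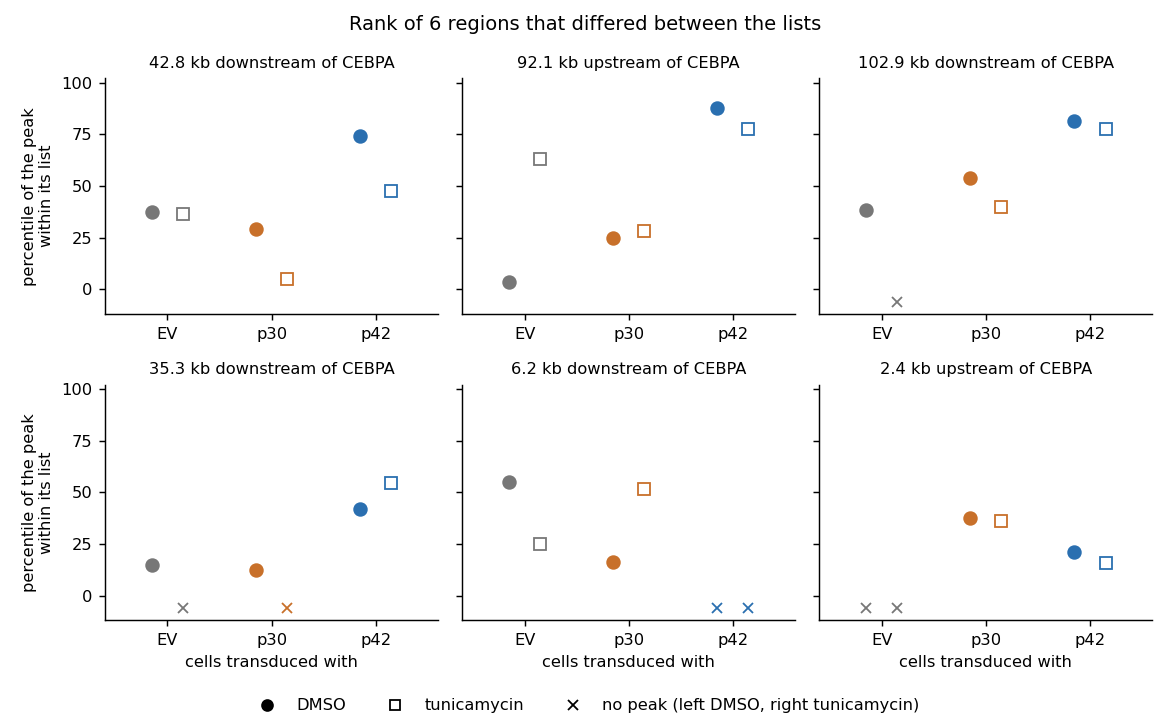
Percentile of the peak within its list for 6 regions, for EV, p30 and p42 cells in DMSO (filled circles) and tunicamycin (open squares), with a cross where there was no peak. In the upper row both p42 values of the middle and right panels (87.8 and 77.5, 81.4 and 77.4) are above the others, and in the lower row the 6.2 kb region has no p42 peak and the 2.4 kb region no EV peak.

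The other regions chosen for a higher percentile in p42 than in p30 in DMSO lay in an LRP3 intron 115.3 kb downstream (67.1 against 14.1) and in introns of SLC7A10, a gene for an amino acid transporter, 87.8 kb downstream (70 against 39) and 86.3 kb downstream (67 against 37.6, with no EV peak). Those chosen for a lower one were the regions 144.4 kb (13 against 30.2) and 76.4 kb downstream (29.6 against 47.1), a region over an exon of CEBPA-DT 2.4 kb upstream of the CEBPA start (21 against 37.5, with no EV peak), one 9.8 kb upstream (8.67 against 33.4) and one over an exon of CEBPG (21 against 33.4). Of all of these, the difference at 115.3 kb lay outside the range of 90% of all regions. Regions 75.9, 56.4 and 17.1 kb downstream and 126.4 kb upstream were missing from 1 to 3 lists and reached at most the 52.7 to 64 percentile in another. Of the strongest regions by mean percentile, the WDR88 intron 141.8 kb downstream (96.8 to 99.2) and the PEPD intron 128.3 kb upstream (87.9 to 96.9) led, ahead of the PEPD intron 138.9 kb upstream, the CEBPG promoter, the region 15.4 kb downstream and the LRP3 promoter.

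Motif matches within 100 bp of the summits were few, and their counts are given beside the share of all regions with no test. C/EBP was found at 5 of 74 regions, or 6.76% (6.7% of all regions), C/EBP:ATF at 1, or 1.35%, AP-1 at 7 (12.9%), RUNX at 12 (22.5%), GATA at 4 (11.3%), PU.1 at 3 (6.86%) and ETS at 12 (25.9%), and C/EBP:AP-1 and CRE at none (1.17% and 0.217%), where 74 regions are too few to show a lower share. The 5 regions with a C/EBP match were those 150.1, 53.1, 15.4 and 8.8 kb downstream and 88.1 kb upstream of CEBPA. An exact match is a description of letters, and regions without one may hold sites of other spelling.

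The starts of the related genes gave a background for the members. CEBPB had percentiles of 67.2 (EV DMSO) to 89.2 (p42 DMSO), CEBPD, like CEBPB a stress-responsive family member, 83.1 to 90.2, and CEBPE, which acts late in granulocyte maturation, 71.8 to 78.5, all with a peak in every list. Of the partners, ATF4 had a peak in every list (90.8 to 96.1), and DDIT3, which encodes CHOP, had none over its annotated start. Among 7 stem and progenitor factors, 5 had a peak in every list (GATA2, SPI1, MYB, ERG and LMO2) and RUNX1 and FLI1 had none over the outermost annotated start. Of the other coding genes of the locus, LRP3 (87.5 to 95.3) and PEPD, whose start lies outside the window (89.2 to 96.8), had a promoter peak in every list, and WDR88 and SLC7A10 had none.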

How the data were processed

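Chromatin accessibility was measured by ATAC-seq in KO52 cells. Per the submitters' processing notes, Trim Galore 0.6.6, Bowtie2 2.4.4, Picard, MACS2, bedtools, deepTools and DESeq2 were used, with hg38 as the build. The authors deposited 1 peak list per condition, called on pooled replicates, with the fold enrichment ratio, −log10 p, −log10 q and summit offset of each peak, beside the MACS2 score, which was not used. Peaks of all lists that shared at least 1 bp were merged into regions. The deposited fold and −log10 p were solved for the whole number of tags at the summit and the local background, which was read as tags in 10 kb (the MACS2 default local window, not stated in the sources used here); the solution was tested on simulated data. Depth was estimated from the lowest background and the shortest peak. Values are per 10000000 tags, with exact 95% Poisson or conditional binomial intervals that cover counting error only. Like regions lie within 2 percentile points. Python 3.11.15, numpy 2.4.6, scipy 1.17.1, pandas 2.3.3, pysam 0.24.0 and GENCODE 44 were used. Named regions were the 6 of highest mean percentile, the 5 of largest p42-minus-p30 difference in either direction, and those missing from a list with a percentile of 50 or more in another. Members, lists and rules were chosen with earlier results of these data known. One marker of the lists chosen is not reported here.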

Additional observations from a re-analysis of the deposited data

How the results depend on the processing

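The lists were pooled, so depth and counting error set the precision and no replicate could be left out. No paired analysis was possible because each condition had 1 list that pooled its replicates. With peaks of a −log10 q of at least 5, the regions in p42 and not p30 were 9, those in p30 and not p42 3, those in EV and not p42 2, those lost with tunicamycin 5 in p42, 4 in p30 and 5 in EV, and those gained 1, 3 and 4. With equal list sizes, p42 and not EV gave 8 and the gain in EV 5. In the inner 200 kb, p30 and not p42 gave 5, the gain in p42 1, and 23 regions were in all 6 lists. The planned overlap of 50% could change no count, since every peak lies whole in its region, and a pairwise overlap of 50%, chosen after seeing the data, gave 4 regions gained in p30. Ranked by fold, the p42-minus-p30 percentile difference in DMSO was 0.314 at the enhancer and -1.98 at CEBPG, both reversed, and -6.65 at CEBPA. Ranked among regions in all 6 lists it was -9.26 at the enhancer, -10.3 at CEBPA and -3.39 at CEBPG, the last reversed. The causes were not tested. Ranked by summit tags, 3 of 3 differences kept their direction, and with a threshold scaled to depth 11 of 11 counts stayed within 1.5 times. Both other scalings of the tags in 10 kb, chosen after seeing the data, kept 20 and 15 ratios within their unscaled intervals. With the scaling to regions of like density, the p42 over p30 interval of the enhancer then reached 1 in DMSO (0.906, 0.818 to 1) and passed it in tunicamycin (0.899, 0.801 to 1.01), and its tunicamycin over DMSO interval came to lie below 1 in p30 (0.869, 0.781 to 0.971) and p42 (0.865, 0.776 to 0.962). The tunicamycin over DMSO interval of CEBPG in p30 held 1 with that scaling (1.12, 0.98 to 1.27).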
